A study of Mus musculus with 51 samples.

Results

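The genes described here are 39 genes of endothelial cells of the lung, the cells that line its capillaries, arteries and veins. They were chosen by name as endothelial genes, and how much of their RNA other lung cells carry was not measured. Each gene was read from the probe set that the array annotation assigns to its symbol. A probe set was found for 37 of the 39, out of 22206 probe sets and 19505 gene symbols on the array. None was named for Egfl7 or Prx, which are not analysed here, and no measured gene had more than 1 probe set.

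Whole lungs came from male mice aged 6 to 8 weeks, of the strains BALB/c and C57BL/6 and of the B-cell deficient line B6.129S2-Ighmtm1Cgn/J, which has no functional mu heavy chain gene and so makes no mature B cells. All mice, controls included, had been sensitized by 2 skin applications of 1% methylene diphenyl diisocyanate (MDI, a polyurethane chemical that can cause occupational asthma) in acetone. Under isoflurane, the MDI groups then received reaction products of MDI with glutathione (GSH) through the airways on days 15, 16, 19 and 20, and the controls received MDI and GSH that had been reacted separately. Lungs were perfused and lavaged, and collected 48 h after that series ended. The groups were BALB/c control (3 arrays) and MDI (3), C57BL/6 control (6) and MDI (13), and B-cell deficient control (9) and MDI (7). In C57BL/6 mice only, crofelemer, a chloride channel inhibitor, was given intranasally at 4 mg/kg 4 h before each control dose (5 arrays) or MDI dose (3). Titles, descriptions and characteristics gave the groups; for C57BL/6 MDI 14 and C57BL/6 control with crofelemer 5 the source label names plain control, against their other labels. Without the first, 22 genes were called with MDI in C57BL/6 mice in place of 21, and without the second the 31 called with crofelemer without MDI stayed at 31. The labels do not say how mice map to arrays, so p-values measure the spread between arrays.

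Endothelial cells hold together through VE-cadherin and claudin junctions and are kept in their state by a few receptor systems: VEGF with its receptor tyrosine kinases, angiopoietins with TIE2, bone morphogenetic proteins (BMP) with ALK1 and endoglin, and apelin and adrenomedullin with G-protein-coupled receptors. ERG, of the ETS family, and the SOXF factors drive much of their gene programme. In mouse alveoli, large gas-exchange capillary cells (aerocytes) carry Car4, Ednrb and Apln, while general capillary cells carry Gpihbp1, Aplnr and Plvap. In whole lung, fewer endothelial cells and less RNA per endothelial cell cannot be told apart.

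Signals are the deposited values, read as log2, and 35 of the 37 genes had a mean above 7.09, the median of all probe sets. The defining markers were bright: Pecam1 averaged 15.46, the 98.7th percentile of probe sets, and Cdh5 averaged 16.55, the 99.5th percentile. Nos3 (6.41) and Esm1 (6.73) lay below that median. A gene is called lower (fell) or higher (rose) where its adjusted p is under 0.05 in a limma model of the 8 groups, with adjustment over all 22206 probe sets. The means of all probe sets ranged from 7.37 to 7.40 in BALB/c arrays, from 7.48 to 7.51 in C57BL/6 arrays without crofelemer, from 7.43 to 7.48 in those with it and from 8.02 to 8.07 in B-cell deficient arrays. A difference in the authors' processing between these sets would enter any comparison across them, crofelemer comparisons included.

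In C57BL/6 lungs MDI lowered 21 of the 37 endothelial genes and raised none. Of all probe sets, 9.23% were called lower and 5.30% higher. The median log2 difference was -0.50 over the 37 genes and 0.01 over all probe sets, and 36 of the 37 values were negative, the exception being Car4 (0.06 ± 0.11, SE; adjusted p = 0.762). The largest falls were in Aplnr, Plvap, Flt1, Erg, Cyyr1, Esm1 and Acvrl1, between 0.98 and 0.80 on the log2 scale. The mean signal of the 37 genes lay between 12.38 and 12.75 in the 6 controls and between 11.65 and 12.35 in the 13 MDI arrays, so no MDI array reached the lowest control in this mean.

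The junction and adhesion genes all fell in C57BL/6 mice. Pecam1 (CD31) ranged from 15.62 to 16.01 in controls, with a median of 15.82, and from 14.78 to 15.65 in MDI arrays, with a median of 15.34. It fell by 0.49 (SE 0.10, adjusted p = 0.000568). Cdh5, which encodes VE-cadherin, fell by 0.47 (SE 0.11), Esam by 0.50 (SE 0.15), the tight junction claudin Cldn5 by 0.53 (SE 0.17) and the adhesion molecule Icam2 by 0.41 (SE 0.12). The highest MDI array overlapped the control range in each of these genes. Esam, Cldn5 and Icam2 were not called without control 1, nor with only these groups fitted.

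Of the VEGF receptors, Kdr (VEGFR2, the main signalling receptor) and Flt1 (VEGFR1) fell. Kdr ranged from 15.42 to 15.84 in controls (median 15.57) and from 13.97 to 15.31 in MDI arrays (median 15.06). The groups did not overlap, and the difference was -0.74 ± 0.14 (SE; adjusted p = 0.000221). Flt1 ranged from 14.11 to 14.48 in controls (median 14.20) and from 12.55 to 14.17 in MDI arrays (median 13.35), with a difference of -0.82 ± 0.14 (adjusted p = 6.66e-05). Flt4, the VEGF-C receptor, gave -0.36 ± 0.15 and was not called (adjusted p = 0.111). In the angiopoietin system, the receptor Tek (TIE2) fell by 0.75 (SE 0.16), Tie1 by 0.59 (SE 0.19) and Ptprb, the phosphatase VE-PTP that acts on TIE2, by 0.47 (SE 0.15).

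The BMP receptors of endothelium were split. Acvrl1 (ALK1) ranged from 14.00 to 14.61 in controls (median 14.38) and from 13.02 to 14.06 in MDI arrays (median 13.69), and fell by 0.80 (SE 0.14, adjusted p = 4.69e-05). Its co-receptor Eng (endoglin) ranged from 16.68 to 17.17 in controls (median 16.85) and from 15.35 to 16.67 in MDI arrays (median 16.19). The Eng groups did not overlap, and the difference was -0.76 ± 0.15 (adjusted p = 0.000229). The type II receptor Bmpr2 (-0.24 ± 0.16, adjusted p = 0.372) and Tmem100, which acts downstream of ALK1 (-0.43 ± 0.20, adjusted p = 0.154), were not called.

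Apelin and its receptor both fell. The receptor Aplnr ranged from 9.69 to 10.77 in controls (median 10.23) and from 8.83 to 9.74 in MDI arrays (median 9.17). It fell by 0.98 (SE 0.15, adjusted p = 1.04e-05), and 1 MDI array reached above the lowest control. The ligand Apln fell by 0.66 (SE 0.17, adjusted p = 0.00571). The endothelin receptor Ednrb (-0.37 ± 0.18, adjusted p = 0.178) and the adrenomedullin receptor components Calcrl (-0.16 ± 0.17, adjusted p = 0.576) and Ramp2 (-0.42 ± 0.15, adjusted p = 0.0509) were not called. Of the capillary proteins, Plvap, which forms the diaphragms of fenestrae and caveolae, fell by 0.98 (SE 0.21), from 13.95 to 15.24 in controls to 12.83 to 14.67 in MDI arrays. Nos3, the endothelial nitric oxide synthase, and Gpihbp1, which holds lipoprotein lipase on capillaries, were not called.

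Among the transcription factors only Erg was called in C57BL/6 mice. Erg ranged from 12.77 to 13.48 in controls (median 13.23) and from 11.57 to 12.98 in MDI arrays (median 12.47), with a difference of -0.82 ± 0.15 (adjusted p = 0.000136). Sox7, Sox17 and Sox18 gave -0.20, -0.31 and -0.50, and Sox18 spread widely, from 8.69 to 10.35 in controls and from 8.10 to 9.78 in MDI arrays (adjusted p = 0.187). Of the surface and secreted proteins, the guidance receptor Robo4 fell by 0.74 (SE 0.14), Cyyr1 by 0.82 (SE 0.17), Esm1 (endocan) by 0.82 (SE 0.26), the matrix protein Mmrn2 by 0.58 (SE 0.15) and Sema3g by 0.52 (SE 0.16). Cyyr1 groups did not overlap. Clec14a, a lectin that binds MMRN2, ranged from 13.17 to 13.62 in controls and from 11.79 to 13.89 in MDI arrays, and was not called (-0.55 ± 0.21, adjusted p = 0.0692).

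Groups did not overlap in 3 of the 37 genes (Kdr, Eng and Cyyr1), all lower with MDI, against 0.617% of all probe sets lower and 0.459% higher. Aplnr, Acvrl1, Flt1, Erg, Kdr and Eng stayed called whichever of the 19 arrays was left out. The count of 21 came down to 14 without control 1, and to 14 when only these groups were fitted; the same 7 genes were lost in both, Esam, Cldn5, Icam2, Tie1, Ptprb, Esm1 and Sema3g. With each array centred on its median, 20 genes were lower and none higher, while 7.25% of all probe sets were lower and 7.08% higher.

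**Figure D1:**
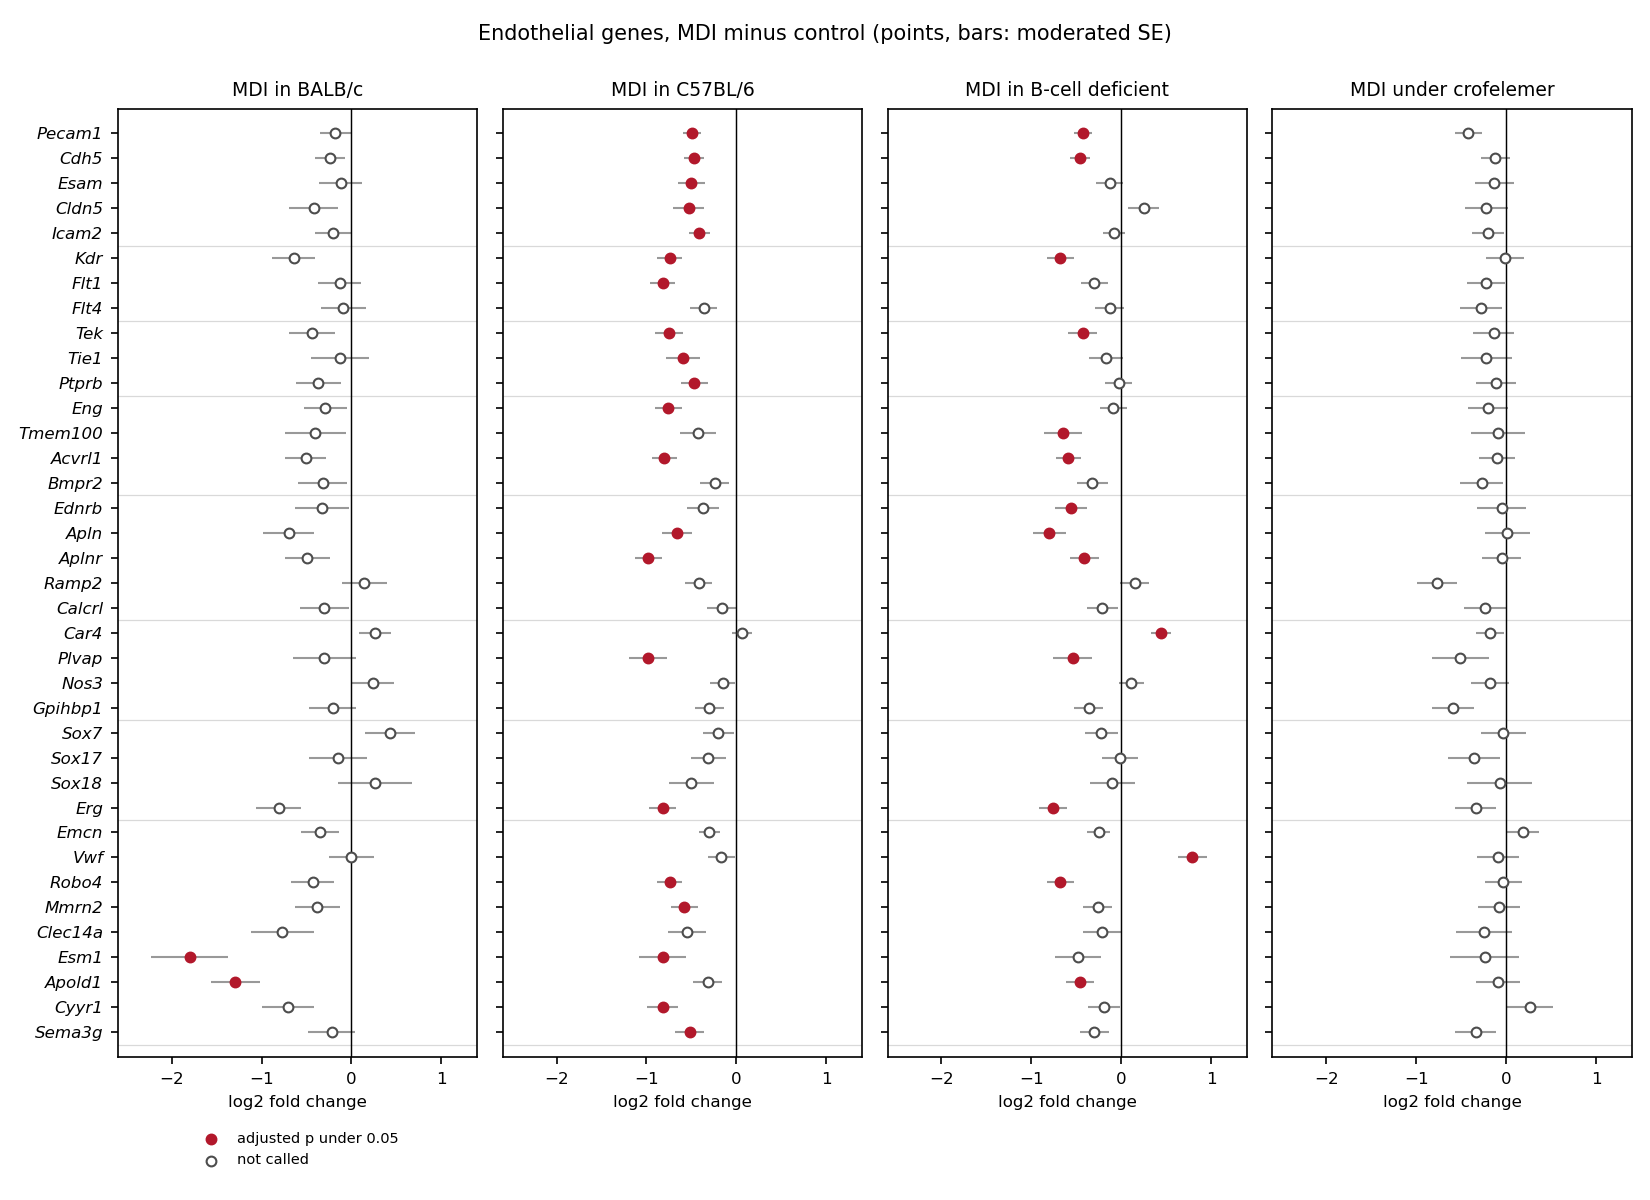
Log2 difference between MDI and control (x axis) for the 37 endothelial genes (rows, grouped by role) in the 4 comparisons of MDI with control. Points are the fitted differences and bars the moderated SE; filled points have an adjusted p under 0.05. In C57BL/6 mice 21 filled points lie left of 0, in B-cell deficient mice 13 lie left and 2 (Vwf and Car4) right, in BALB/c mice 2 lie left, and under crofelemer none is filled.

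Sequence upstream of the start of transcription is shown for 6 genes that fell with MDI in C57BL/6 mice or with crofelemer and that hold the core recognised by ETS factors, the family of ERG. RefSeq windows (GRCm38.p6) of 250 bases before to 50 after the start were found for 20 of the 37 genes. The letters AGGAAG, or CTTCCT for the other strand, occurred in 12 of these 20 genes (60%) and in 38.4% of the 27025 genes with such a window. Of the 12 genes with a window that fell with MDI in C57BL/6 mice, 8 (66.7%) held them. The SOX core ACAAT, on either strand, occurred in 8 of 20 (40%, against 34.4% of all genes) and the GATA core AGATAA in 2 of 20 (10%, against 12.7%). Each run below is the 200 bases before the start, 5′ to 3′ on the gene's strand, with AGGAAG and CTTCCT in capitals. They are Flt1 at chr5:147726012-147726211 (minus strand), Eng at chr2:32646395-32646594 (plus), Erg at chr16:95459349-95459548 (minus, the one of its starts that holds a match), Robo4 at chr9:37401772-37401971 (plus), Emcn at chr3:137340878-137341077 (plus) and Cyyr1 at chr16:85550374-85550573 (minus).
Flt1: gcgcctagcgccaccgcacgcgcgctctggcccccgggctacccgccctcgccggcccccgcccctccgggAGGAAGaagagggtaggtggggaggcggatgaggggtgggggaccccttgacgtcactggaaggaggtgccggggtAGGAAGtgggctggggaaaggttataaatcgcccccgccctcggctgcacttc
Eng: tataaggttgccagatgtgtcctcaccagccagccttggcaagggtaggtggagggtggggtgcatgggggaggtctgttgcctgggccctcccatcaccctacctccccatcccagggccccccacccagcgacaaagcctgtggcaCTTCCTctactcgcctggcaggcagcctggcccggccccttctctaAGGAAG
Erg: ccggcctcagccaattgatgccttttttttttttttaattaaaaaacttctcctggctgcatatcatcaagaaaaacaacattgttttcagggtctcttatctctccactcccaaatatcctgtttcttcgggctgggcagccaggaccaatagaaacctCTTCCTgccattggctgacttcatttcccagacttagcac
Robo4: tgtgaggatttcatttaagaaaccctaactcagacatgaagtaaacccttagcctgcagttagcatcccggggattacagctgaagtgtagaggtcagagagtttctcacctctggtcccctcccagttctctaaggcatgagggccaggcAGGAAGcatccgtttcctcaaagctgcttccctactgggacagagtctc
Emcn: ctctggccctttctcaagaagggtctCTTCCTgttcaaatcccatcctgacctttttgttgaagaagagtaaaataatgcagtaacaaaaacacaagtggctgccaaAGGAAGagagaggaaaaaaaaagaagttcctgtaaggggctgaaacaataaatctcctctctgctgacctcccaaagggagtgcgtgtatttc
Cyyr1: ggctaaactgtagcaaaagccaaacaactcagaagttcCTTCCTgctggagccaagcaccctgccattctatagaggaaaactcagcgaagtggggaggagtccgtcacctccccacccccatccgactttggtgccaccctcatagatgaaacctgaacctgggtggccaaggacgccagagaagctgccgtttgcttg
Flt1 held these letters at -129 and -53, counted in bases from the start, Eng at -52 and -6, Robo4 at -49, Erg at -40, Emcn at -174 and -93 and Cyyr1 at -162. The windows of Kdr, Tek, Cldn5, Ednrb, Car4, Flt4, Clec14a and Esm1 held neither AGGAAG nor CTTCCT. Other forms of the ETS core were not searched for, in these or the other windows. A match is a description of these letters, and binding was not measured.

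In BALB/c mice 2 endothelial genes were called, both lower: Esm1, the secreted proteoglycan endocan, and Apold1, an early-response gene of endothelium. Of all probe sets, 0.0405% were called lower and 0.261% higher in this comparison of 3 arrays with 3. Esm1 was 8.03, 9.04 and 9.16 in the controls and 6.52, 6.81 and 7.50 in the MDI arrays, and fell by 1.80 (SE 0.43, adjusted p = 0.0392). Apold1 was 6.66, 7.22 and 7.26 in the controls and 5.93, 5.57 and 5.77 in the MDI arrays, and fell by 1.29 (SE 0.27, adjusted p = 0.00824). The groups did not overlap in either gene. With the model fitted only to the first of the 3 submission blocks, which holds all BALB/c arrays, Esm1 was not called (adjusted p = 0.0768) and Apold1 was.

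The other BALB/c values mostly pointed down without passing the test, with 32 of the 37 negative and a median of -0.30, against -0.01 over all probe sets. Erg was 14.12, 14.47 and 14.60 in the controls and 13.84, 13.41 and 13.50 in the MDI arrays (-0.81 ± 0.25, adjusted p = 0.238). Clec14a (-0.77 ± 0.35) and Cyyr1 (-0.71 ± 0.29) were also uncalled, and in all 3 genes every MDI array lay below every control. In all, 16 of the 37 genes had no overlap with MDI lower and 1 (Car4) with MDI higher, against 6.83% and 7.48% of all probe sets. Fitted with the BALB/c arrays alone, Kdr, Erg and Cyyr1 were called as well, which made 5. No gene was called without control 2, control 3 or MDI 2.

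In B-cell deficient mice MDI lowered 13 endothelial genes and raised 2, Vwf and Car4. Here 20.7% of all probe sets were called lower and 16.2% higher, so the share of endothelial genes called lower (35.1%) was nearer to the background than in C57BL/6 mice (56.8%). The median difference was -0.26, against -0.06 over all probe sets. The falls in Apln, Erg, Kdr and Robo4 were the largest, between 0.80 and 0.68.

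Vwf encodes von Willebrand factor, the platelet-binding protein stored in endothelial granules and richest in veins and larger vessels. It ranged from 12.08 to 12.91 in the 9 controls (median 12.43) and from 12.89 to 13.68 in the 7 MDI arrays (median 13.38). It rose by 0.79 ± 0.16 (SE; adjusted p = 9.66e-05), and only the highest control reached the MDI range. Car4, the carbonic anhydrase of capillary surfaces, ranged from 12.86 to 13.29 in controls and from 13.30 to 13.89 in MDI arrays, with no overlap, and rose by 0.44 ± 0.11 (adjusted p = 0.00193).

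Erg ranged from 13.15 to 13.73 in B-cell deficient controls (median 13.51) and from 12.34 to 13.09 in MDI arrays (median 12.71), with no overlap, and fell by 0.76 (SE 0.16, adjusted p = 0.000146). Robo4 and Acvrl1 also separated fully and fell by 0.68 (SE 0.15) and 0.59 (SE 0.14). Kdr ranged from 15.27 to 15.80 in controls (median 15.59) and from 14.65 to 15.27 in MDI arrays (median 14.80), and fell by 0.68 (SE 0.15, adjusted p = 0.000281). Apln ranged from 8.55 to 9.77 in controls (median 8.90) and from 7.69 to 8.69 in MDI arrays (median 8.16), and fell by 0.80 (SE 0.18). Cdh5 overlapped only at its edge, from 16.28 to 16.82 in controls against 15.91 to 16.29 with MDI, and fell by 0.46 (SE 0.11). Pecam1, Tek, Tmem100, Ednrb, Aplnr, Plvap and Apold1 fell by 0.41 to 0.65. Esm1 (-0.48 ± 0.26), Gpihbp1 (-0.36 ± 0.16) and Bmpr2 (-0.32 ± 0.17) were not called.

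No overlap was seen in 3 genes lower and 1 higher, against 2.36% and 4.67% of all probe sets. All 9 controls came from the second of 3 blocks of consecutive submission records, while the MDI arrays came from the first (4) and the second (3). With the block as a term in the model 9 genes were called (7 lower and 2 higher), and Tek, Aplnr, Plvap, Robo4, Apold1 and Acvrl1 were not among them. Within the second block 12 genes were lower and the same 2 higher. Controls 1, 2, 5 and 6 had the narrowest spread of values over the array, and without them 10 genes were lower and 1, Vwf, higher.

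Called lower in both C57BL/6 and B-cell deficient mice were 10 genes: Pecam1, Cdh5, Kdr, Tek, Apln, Aplnr, Plvap, Erg, Robo4 and Acvrl1, against 2.91% of all probe sets. They make up 47.6% of the genes lower in C57BL/6 and 76.9% of those lower in B-cell deficient mice, groups that share no arrays. Of all probe sets lower in C57BL/6 mice 31.6% were also lower in B-cell deficient mice, and of those lower in B-cell deficient mice 14.1% were also lower in C57BL/6 mice. With the submission block as a term, Tek, Aplnr, Plvap, Robo4 and Acvrl1 lost the B-cell deficient call. In no comparison of MDI with control were Flt4, Emcn, Nos3, Sox7, Sox17, Sox18, Gpihbp1, Ramp2, Calcrl, Clec14a and Bmpr2 called. In 27 genes the value was negative in all 4 such comparisons, as it was in 10.3% of all probe sets.

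The difference between the MDI effects of the 2 mouse sets was tested as an interaction. Of the 37 genes 3 were called, and in each the B-cell deficient effect was the higher, against 9.27% of all probe sets higher and 11.0% lower. The share of the 37 called higher was thus near that of all probe sets. Vwf differed by 0.96 ± 0.22 (SE; adjusted p = 0.00211), with an effect of 0.79 in B-cell deficient and -0.17 in C57BL/6 mice. Cldn5 differed by 0.78 ± 0.24 (adjusted p = 0.0162), from effects of 0.25 and -0.53. Eng differed by 0.67 ± 0.21 (adjusted p = 0.0197), from effects of -0.09 and -0.76. Without the 4 narrow-spread controls none of the 3 was called (adjusted p of 0.057 for Vwf, 0.179 for Cldn5 and 0.144 for Eng), and with the submission block as a term only Vwf was. With arrays centred on their medians the same 3 genes were higher, while 6.65% of all probe sets were higher and 16.6% lower. No gene's effect was called different between BALB/c and C57BL/6 mice by limma, where 0.0135% of all probe sets were called in each direction. Unadjusted limma p was under 0.05 in 2 of the 37 genes and in 1737 of the 22206 probe sets.

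**Figure D2:**
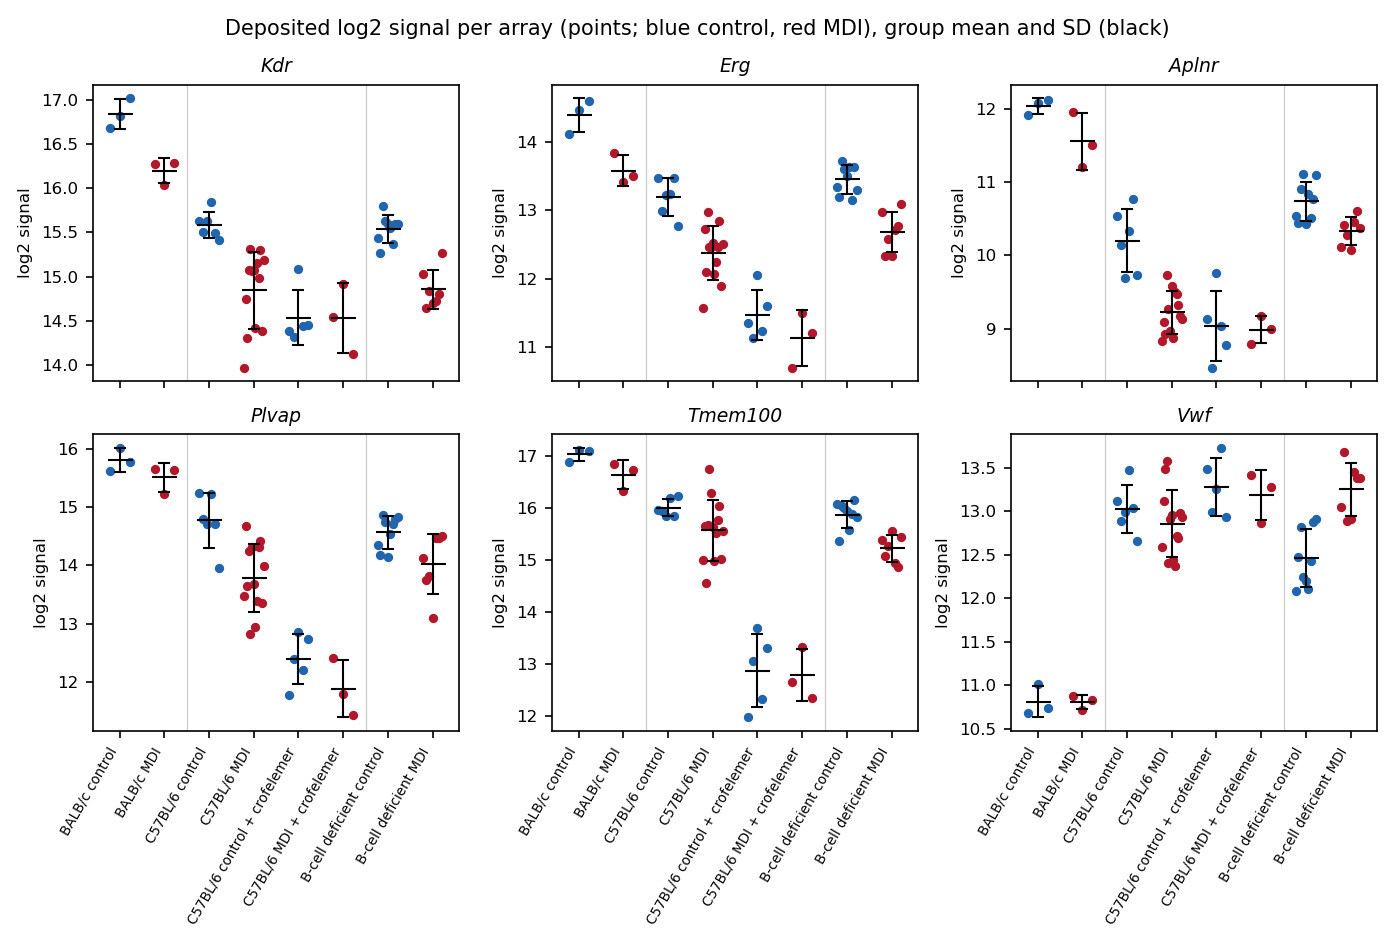
Log2 signal (y axis) of Kdr, Erg, Aplnr, Plvap, Tmem100 and Vwf on each of the 49 arrays, by group (x axis). Points are arrays, wide black bars group means and vertical bars the SD. With crofelemer, Tmem100 lies at 11.97 to 13.69 on all 8 arrays, below the 14.55 of the lowest C57BL/6 array without it, and Vwf is the gene that is higher with MDI in B-cell deficient mice.

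The largest differences in these genes were between C57BL/6 mice with and without crofelemer. Without MDI, 31 of the 37 genes were lower with crofelemer and none higher, with a median difference of -1.05 against 0.03 over all probe sets. Of all probe sets 21.4% were called lower and 17.6% higher. With MDI, 22 genes were lower and none higher, with a median of -0.62, against 17.5% of all probe sets lower and 15.0% higher. The 2 comparisons use different arrays. In an alternative fit, replicate numbers were taken as pairs for the arrays with MDI (3 pairs, r 0.11 to 0.17 between deviations). The labels do not state that equal numbers are pairs, and in the other comparisons this r ran from -0.26 to 0.18. With the pairs as a block 12 genes were lower in place of 22, and Sox18 was gained. Lost were Cdh5, Tek, Eng, Cldn5, Apln, Sox17, Calcrl, Ptprb, Clec14a, Bmpr2 and Icam2. That fit held only 6 arrays, and whether the losses come from the pairing or from the smaller fit was not tested. The mean signal of the 37 genes lay between 11.22 and 11.75 in controls with crofelemer and between 11.03 and 11.39 in MDI arrays with crofelemer, below every C57BL/6 control without it (12.38 to 12.75).

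Tmem100 showed the largest difference. Its signal was 11.97, 13.05, 13.69, 12.32 and 13.31 in the 5 controls with crofelemer, against 15.86 to 16.23 in the 6 without (median 15.96). It fell by 3.14 (SE 0.25, adjusted p = 7.73e-15). With MDI it was 12.66, 13.33 and 12.35 with crofelemer, against 14.55 to 16.75 without (median 15.64), and fell by 2.80 (SE 0.26, adjusted p = 2.9e-12). No array with crofelemer reached an array without it. Of the other BMP pathway genes, Eng fell by 1.09 (SE 0.18) without MDI and 0.53 (SE 0.19) with it, and Bmpr2 by 0.58 (SE 0.20) and 0.62 (SE 0.21). Paired by number, their values with MDI were -0.36 (adjusted p = 0.451) and -0.20 (adjusted p = 0.697) by limma, so neither call held. Acvrl1 fell by 1.11 (SE 0.17) without MDI and was not called with it (-0.41 ± 0.18, adjusted p = 0.0685).

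The endothelin receptor Ednrb was 10.76, 11.90, 12.27, 11.90 and 12.60 in controls with crofelemer and 14.13 to 14.44 in those without, and fell by 2.40 (SE 0.22, adjusted p = 8.02e-13). With MDI it was 11.65, 12.06 and 11.81, against 12.89 to 14.61 without crofelemer, and fell by 2.08 (SE 0.23). Both adrenomedullin receptor components fell in both comparisons, Ramp2 by 1.39 (SE 0.19) without MDI and 1.74 (SE 0.20) with it, and Calcrl by 0.92 (SE 0.20) and 0.99 (SE 0.21). Apln fell by 1.56 (SE 0.21) and 0.89 (SE 0.22). With MDI and paired by number, Calcrl gave -0.38 (adjusted p = 0.344) and Apln -0.61 (adjusted p = 0.173) by limma, and neither was called. Aplnr fell by 1.16 (SE 0.19) without MDI and was -0.23 ± 0.20 with it (adjusted p = 0.391).

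Capillary genes of both kinds were lower with crofelemer. Plvap was 11.77, 12.39, 12.86, 12.21 and 12.74 in controls with crofelemer and 13.95 to 15.24 without, and fell by 2.38 (SE 0.26, adjusted p = 1.61e-10), and with MDI it fell by 1.91 (SE 0.28). Gpihbp1 fell by 1.26 (SE 0.19) and 1.56 (SE 0.20). Car4, which was called higher with MDI only in B-cell deficient mice, fell by 0.93 (SE 0.13) and 1.17 (SE 0.14). Emcn, the endothelial sialomucin endomucin, was 10.59, 10.99, 11.40, 10.67 and 11.29 against 12.52 to 13.44, and fell by 2.05 (SE 0.15, adjusted p = 9.91e-16). Cyyr1 was 13.03, 14.10, 14.60, 13.51 and 14.20 against 16.43 to 16.98, and fell by 2.73 (SE 0.21, adjusted p = 4.72e-15). In these 5 genes no array with crofelemer reached the range of its comparison group without it.

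Junction and growth factor receptor genes were also lower. Pecam1 fell by 1.15 (SE 0.13) without MDI and 1.08 (SE 0.13) with it, Cdh5 by 0.74 (SE 0.13) and 0.39 (SE 0.14), Cldn5 by 1.17 (SE 0.20) and 0.86 (SE 0.21), Icam2 by 1.08 (SE 0.15) and 0.87 (SE 0.16) and Tek by 1.38 (SE 0.19) and 0.77 (SE 0.21). Of these, only Pecam1 was also called with MDI when arrays were paired by number; Cdh5 (-0.25, adjusted p = 0.555), Cldn5 (-0.78, adjusted p = 0.114), Icam2 (-0.81, adjusted p = 0.0715) and Tek (-0.43, adjusted p = 0.298) were not, by limma. Kdr was 14.38, 14.32, 15.09, 14.44 and 14.45 in controls with crofelemer and 15.42 to 15.84 without, and fell by 1.05 (SE 0.17). With MDI Kdr was 14.54, 14.92 and 14.13, within the range without crofelemer (13.97 to 15.31), and was not called (-0.32 ± 0.19, adjusted p = 0.196). Flt1, likewise, fell by 0.93 (SE 0.18) without MDI and was -0.33 ± 0.19 with it. Erg fell by 1.72 (SE 0.19) and 1.24 (SE 0.20).

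Not called without MDI were Flt4 (0.30 ± 0.19), Esam (-0.33 ± 0.18), Vwf (0.25 ± 0.19), Nos3 (-0.11 ± 0.17), Sox7 (-0.30 ± 0.21) and Apold1 (0.05 ± 0.20). With each array centred on its median, 30 genes were lower and 1, Flt4, higher, while 16.8% of all probe sets were lower and 31% higher, and the median of all probe sets moved to 0.19. With MDI the same centring gave 19 genes lower and Flt4 higher, with 15% of all probe sets lower, 21.9% higher and a median of 0.14. No overlap was seen in 24 genes without MDI, all lower, against 12.7% of all probe sets lower and 7.60% higher, and in 12 genes with MDI, all lower, against 8.87% and 4.98%.

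Controls with and without crofelemer also shared the third submission block, with 1 and 2 arrays. Within it, the array with crofelemer was lower than both others in 33 of the 37 genes, against 38.4% of all probe sets, with a median difference of -0.96. This array is C57BL/6 control with crofelemer 5, one of those with an inconsistent source label. Within the first block alone 29 genes were called without MDI and 19 with it. Pecam1, Cdh5, Tek, Apln, Plvap and Erg were lower in the MDI comparisons of C57BL/6 and B-cell deficient mice and in both crofelemer comparisons, though Cdh5, Tek and Apln lost the crofelemer call with MDI when paired by number, and Tek and Plvap the B-cell deficient call with the submission term. The C57BL/6 comparisons share their arrays without crofelemer, so agreement between them is not independent.

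**Figure D3:**
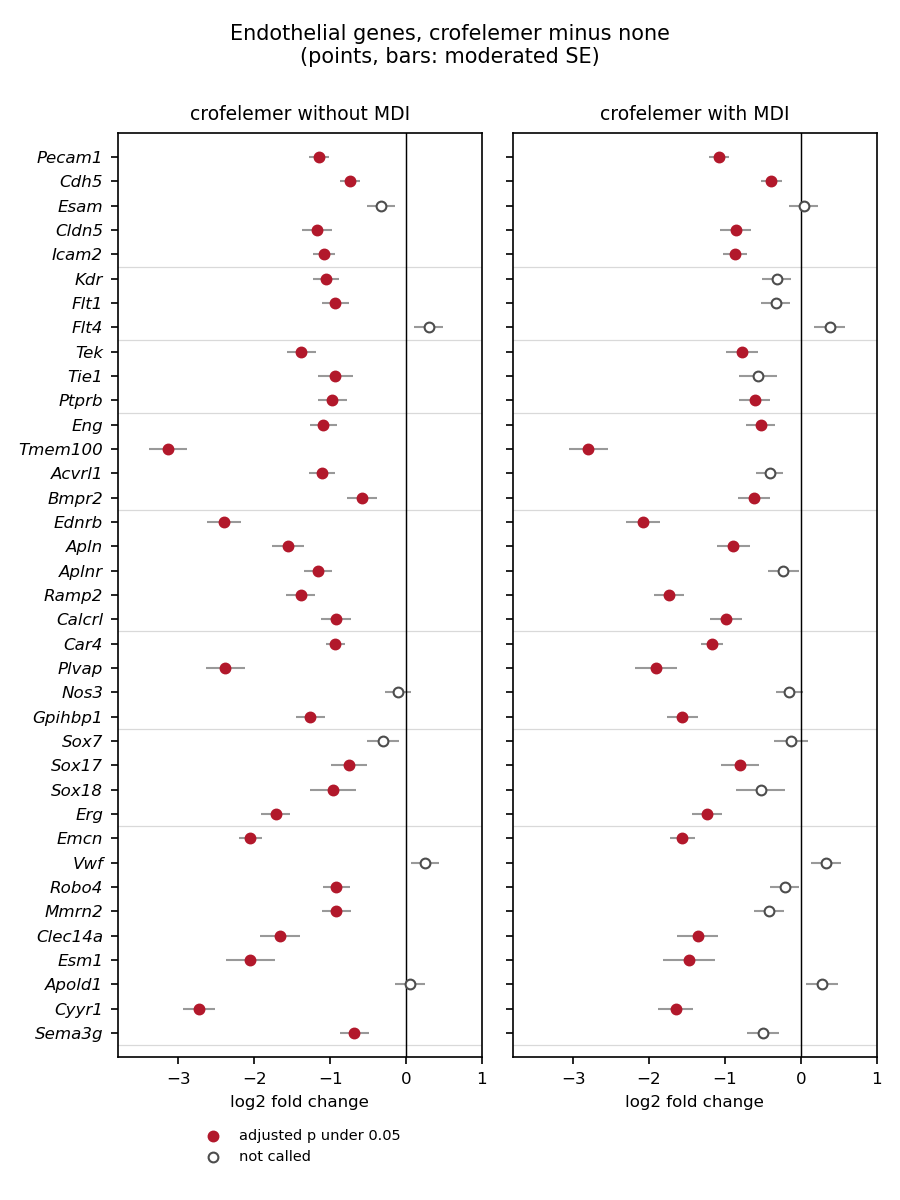
Log2 difference between mice with and without crofelemer (x axis) for the 37 endothelial genes (rows, grouped by role), without MDI on the left and with MDI on the right. Points are fitted differences and bars the moderated SE; filled points have an adjusted p under 0.05. All filled points, 31 on the left and 22 on the right, lie below 0, with Tmem100 at -3.14 and -2.80.

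Under crofelemer, none of the 37 genes was called with MDI by limma (3 arrays against 5). Unadjusted limma p was under 0.05 in 3 of the 37 genes and in 1826 of the 22206 probe sets, a similar share. Values were negative in 34 of the 37 genes, with a median of -0.18 against -0.00 over all probe sets. Of all probe sets 0.0180% were called lower and 0.0360% higher. Ramp2 was 12.12, 11.70 and 11.05 with MDI and 12.37, 12.28, 12.50, 12.50 and 12.33 without (-0.77 ± 0.22, adjusted p = 0.23). Gpihbp1 gave -0.59 ± 0.23 and Plvap -0.51 ± 0.32, and Kdr gave -0.01 ± 0.21. Ramp2 and Gpihbp1 did not overlap between the groups, against 1.16% of all probe sets lower and 1.80% higher. The difference between the MDI effects with and without crofelemer was called in no gene by limma, and in 0.243% of all probe sets lower and 0.180% higher. Unadjusted limma p was under 0.05 in 10 of the 37 genes and in 2679 of the 22206 probe sets. The median of this difference over the 37 genes was 0.35. Its highest values were in Cyyr1 (1.07 ± 0.31, adjusted p = 0.111) and Aplnr (0.93 ± 0.27, adjusted p = 0.116), which were called when crofelemer control 3 was left out.

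Other genes of the same cells and pathways were counted from lists that hold none of the 37, apart from Vwf among venous and Flt4 among lymphatic markers. Their counts are to be read against all probe sets, of which 9.23% were lower and 5.30% higher with MDI in C57BL/6 mice, 20.7% and 16.2% in B-cell deficient mice, and 21.4% and 17.6% with crofelemer without MDI. No difference between lists was tested. Of 19 other endothelial markers, 13 were lower and 1 higher with MDI in C57BL/6 mice, 8 and 1 in B-cell deficient mice, and 13 and 1 with crofelemer without MDI. Chst1, a sulfotransferase, fell by 1.13 (SE 0.15) and Kit, a receptor of general capillary cells, by 0.54 (SE 0.12) with MDI in C57BL/6 mice. Fibin, an aerocyte gene, fell by 0.91 (SE 0.15) with MDI in B-cell deficient mice. With crofelemer, Lyve1, a hyaluronan receptor of lymphatic and some other endothelium, fell by 3.06 (SE 0.25) and Hpgd, which breaks down prostaglandins, by 1.96 (SE 0.20).

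Of 17 angiogenic ligands, which include those of these receptors, 4 were lower and none higher with MDI in C57BL/6 mice, led by Adm (adrenomedullin, -1.13 ± 0.19), Bmp6 (-0.94 ± 0.17) and the TIE2 ligand Angpt2 (-0.87 ± 0.16). In B-cell deficient mice 5 were lower, led by Vegfa (-0.73 ± 0.15) and the TIE2 agonist Angpt1 (-1.01 ± 0.22). With crofelemer without MDI 8 were lower and 1 higher, led by Bmp6 (-2.68 ± 0.21), Angpt2 (-2.29 ± 0.20) and Bmp4 (-2.51 ± 0.27). Of 8 BMP target genes, Smad6 (-0.85 ± 0.20) and Smad9 (-0.41 ± 0.13) fell and Id2 (0.73 ± 0.16) rose with MDI in C57BL/6 mice, while none was lower and 3, Id2, Smad7 and Id3, higher in B-cell deficient mice. With crofelemer without MDI 3 were lower, Smad6 (-1.15 ± 0.24), Smad9 and Hes1.

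Of 12 co-receptors and Notch pathway genes, 5 were lower with MDI in C57BL/6 mice, led by the sphingosine-1-phosphate receptor S1pr1 (-1.31 ± 0.23) and the Wnt receptors Lrp5 (-0.73 ± 0.13) and Fzd4 (-0.64 ± 0.16). In B-cell deficient mice 1 was lower and 4 higher, led by the semaphorin receptors Plxnd1 (1.20 ± 0.17) and Nrp2 (0.76 ± 0.15). Of 17 other transcription factors of endothelium, 7 were lower in C57BL/6 mice with MDI, led by Ets2 (-1.51 ± 0.22), Foxf1 (-1.01 ± 0.19) and Tbx3 (-0.71 ± 0.14). In B-cell deficient mice 4 of the 17 were lower, a share near that of all probe sets, Tbx3 (-0.80 ± 0.14) and Foxf1 (-0.61 ± 0.20) among them, and Lyl1 was higher (1.25 ± 0.17). With crofelemer without MDI 9 were lower and 1 higher, led by the hypoxia-inducible factor Epas1 (-1.25 ± 0.15), Gata2 (-1.62 ± 0.23) and Klf4 (-1.34 ± 0.25).

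Of 10 genes of activated endothelium, 1 (Angpt2) was lower and 2 were higher with MDI in C57BL/6 mice, Selp (P-selectin, 1.13 ± 0.34) and Il6 (0.62 ± 0.22), and the same 2 were higher in B-cell deficient mice (Selp 1.66 ± 0.34). With crofelemer without MDI Lrg1 was higher (2.78 ± 0.26), and Angpt2 and the leukocyte adhesion receptor Vcam1 (-0.54 ± 0.19) were lower. Arterial markers were lower in 2 and higher in 1 of 10 with MDI in C57BL/6 mice, with Gja5 (an arterial connexin) at -0.93 ± 0.19. Venous markers were lower in 3 and higher in 1 of 9, and lymphatic markers lower in 1 and higher in 1 of 8.

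Markers of other lung cells moved in the same comparisons, and their part in the endothelial results was not tested. Of 15 leukocyte markers, 4 were higher and 1 lower with MDI in C57BL/6 mice and 13 higher in B-cell deficient mice, where their mean signal rose from between 9.30 and 10.31 to between 10.99 and 11.46, with a median difference of 1.31. With crofelemer without MDI 7 leukocyte markers were lower and none higher, and 4 of 10 macrophage markers were higher and none lower. With MDI 6 macrophage markers were higher in C57BL/6 and 7 in B-cell deficient mice, and none lower. Of 10 airway secretory markers, 5 were higher in C57BL/6 and 6 in B-cell deficient mice, and 2 were lower in each, with the mucin Muc5ac at 5.41 ± 0.39 in C57BL/6 mice. Of 7 proliferation markers, 6 were higher with MDI in each of these sets, and 7 with crofelemer without MDI. Alveolar type 1 cell markers, from the epithelium that faces the capillaries, were lower in 7 of 11 with MDI in both mouse sets, and in 4 with 1 higher under crofelemer without MDI. Alveolar type 2 markers were lower in 3 of 10 and higher in 1 in C57BL/6 mice with MDI, and lower in 3 and higher in 5 with crofelemer without MDI.

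Cells that touch endothelium were mixed. Of 14 pericyte and smooth muscle markers, 3 were lower and 4 higher with MDI in C57BL/6 mice, with the pericyte receptor Pdgfrb at -0.80 ± 0.15 and the smooth muscle actins Acta2 at 0.73 ± 0.13 and Actg2 at 1.26 ± 0.24. In B-cell deficient mice 1 was lower and 4 higher. With crofelemer without MDI 4 were lower, led by the pericyte gene Higd1b (-1.11 ± 0.19), and 2 higher. Of 9 fibroblast markers, 2 were lower and 3 higher with MDI in C57BL/6 mice and 4 and 3 with crofelemer without MDI, with the collagen Col3a1 higher in both (1.58 ± 0.21 and 2.71 ± 0.26). Platelets also store von Willebrand factor, and of 6 platelet markers 1 was lower in C57BL/6 and 2 in B-cell deficient mice with MDI and none higher. In the difference between these MDI effects, Ppbp was higher in B-cell deficient mice (2.01 ± 0.51, adjusted p = 0.00504 by limma). In that difference 2 platelet markers, Treml1 and Itga2b, were lower. The part of platelets in the Vwf result was not tested. The mean platelet signal in B-cell deficient mice lay between 7.04 and 7.46 in controls and between 6.91 and 7.61 with MDI.

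**Figure D4:**
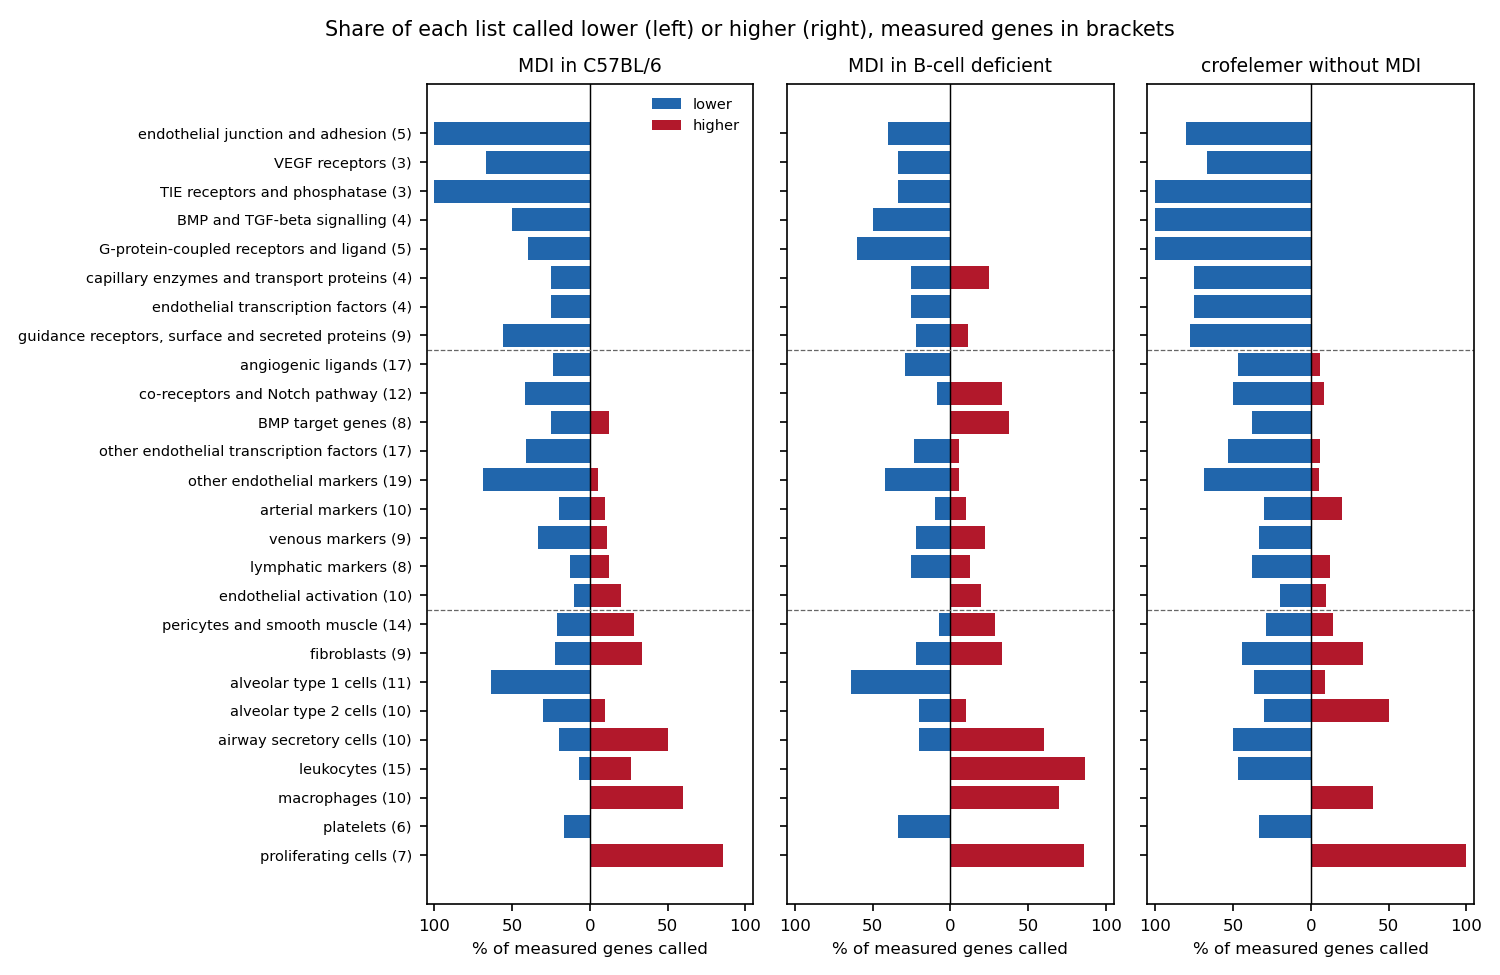
Share of the measured genes of each list called lower (bars to the left, blue) or higher (bars to the right, red), in percent (x axis), for MDI in C57BL/6 mice, MDI in B-cell deficient mice and crofelemer without MDI. The upper block holds the 37 genes by role, the middle block related endothelial lists and the lower block other cell types; numbers in brackets are genes measured. The upper block has no red bar in the C57BL/6 and crofelemer panels, and 2 in the B-cell deficient panel, from Car4 and Vwf.

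Most pairs of these genes also correlated positively from array to array within groups. After each group's mean was taken away, the median Pearson r over the 666 pairs of genes was 0.29 on 49 arrays, with a range from -0.44 to 0.81, and 555 pairs lay above 0. All points of a pair come from the same arrays and so share hybridisation and RNA quality, and r is given as a description. It was not computed for pairs of other genes on these arrays. The closest pairs were the tyrosine kinase Tie1 with the claudin Cldn5 (0.81), the receptors Kdr and Tek (0.79), Eng with the phosphatase Ptprb (0.79) and Calcrl with Bmpr2 (0.77). Kdr had a median r of 0.49 with the other genes, and Pecam1, Erg and Eng each had 0.48. Sox7 (0.02), Apold1 (0.05) and Car4 (0.09) had the lowest medians, and Calcrl with Flt4 the lowest r (-0.44). The median r was 0.31 on the 27 C57BL/6 arrays (-0.56 to 0.89, 547 pairs above 0). On the 16 B-cell deficient arrays it was 0.22 (-0.83 to 0.88, 476 pairs above 0). After quantile normalization within each mouse set the median was 0.25.

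**Figure D5:**
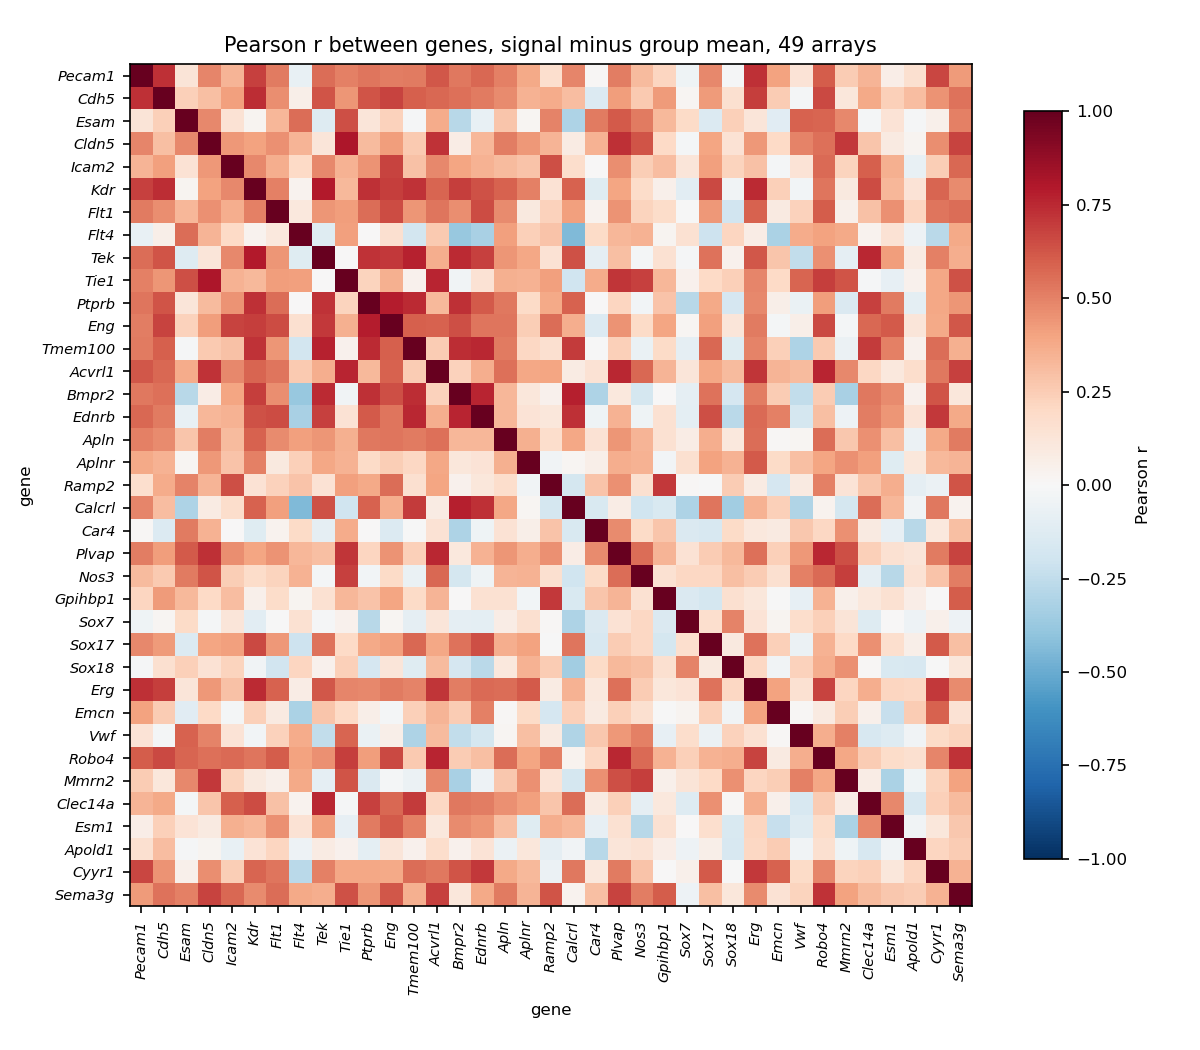
Pearson r (colour) between each pair of the 37 endothelial genes over 49 arrays, computed on log2 signal minus the group mean; genes on both axes follow the role groups. Most cells lie above 0 (555 of 666 pairs); the rows of Sox7, Apold1 and Car4 are the palest, with medians of 0.02, 0.05 and 0.09.

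Levels differed between the mouse sets in ways that were not tested, since processing may differ between sets. Vwf averaged 10.81 ± 0.18 (SD, n = 3) in BALB/c controls, 13.02 ± 0.27 (n = 6) in C57BL/6 controls and 12.46 ± 0.33 (n = 9) in B-cell deficient controls. Sox18 ran the other way, with 11.56 ± 0.17 in BALB/c, 9.26 ± 0.61 in C57BL/6 and 8.97 ± 0.54 in B-cell deficient controls. Kdr averaged 16.84 ± 0.17, 15.59 ± 0.15 and 15.54 ± 0.16, and Aplnr 12.04 ± 0.11, 10.20 ± 0.43 and 10.74 ± 0.27. Pecam1 was closer in the 3 sets, with 16.11 ± 0.10, 15.82 ± 0.18 and 15.87 ± 0.15. Its BALB/c controls (16.03 to 16.22) still lay above every C57BL/6 control (15.62 to 16.01), and overlapped the B-cell deficient controls (15.57 to 16.11). In Vwf, Sox18, Kdr and Aplnr no BALB/c control overlapped a C57BL/6 or B-cell deficient control. The share of all probe sets that separate in this way was not counted.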

How the data were processed

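RNA of 51 whole-lung samples was hybridised to 1-colour arrays, 250 ng of total RNA each, per the labels' protocols. The authors deposited log2 signal values with 2 decimals, written with Transcriptome Analysis Console per the submitters' processing notes, which as used here give neither its normalization nor its version. A base of 2 was inferred from the range (1.86 to 20.91). Array means differ between mouse sets, so tests were made within sets or on differences of effects. Symbols came from the array annotation (19572 probe sets with 1 symbol, 2634 with none).

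Of the 51 arrays 49 entered the comparisons, and 2 whose titles contradict their characteristics did not. Among the 49, C57BL/6 MDI 14 and C57BL/6 control with crofelemer 5 have a source label that names plain control; they were grouped by their other labels. limma 3.58.1 in R 4.3.3 fitted 8 group means (41 residual degrees of freedom, intensity trend, 2-sided), with Benjamini-Hochberg adjustment over 22206 probe sets, for 9 comparisons; several share control groups. The code was tested on simulated data. The number of arrays limits precision. Values are differences ± moderated SE, or means ± SD. No 2 arrays shared more than 1.6% of their values.

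Deviations of arrays with the same replicate number correlated positively in every pair only for crofelemer with MDI (3 pairs, r 0.11 to 0.17). Those arrays were treated as pairs only in an alternative fit with the pairs as a block. The main fit left them unpaired. For MDI in C57BL/6 mice 4 of 6 pairs correlated positively (r -0.22 to 0.18), and the main results do not treat them as pairs.

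The genes and lists were chosen with earlier results of these data known. Genes are named by role; values are given for up to 6 called and 3 uncalled genes with the smallest p or largest difference per MDI comparison, up to 4 per crofelemer comparison or interaction, and up to 3 called per related list. A few others with full array values (Plvap, Pecam1 and Kdr with crofelemer) were added after their values were seen. Alternatives were fits of the compared groups alone, quantile normalization, median centring, a filter on dim probe sets, no trend, array weights, submission blocks (inferred from consecutive records), replicate blocks and leaving out arrays.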

Additional observations from a re-analysis of the deposited data

Results flagged for a closer look

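In 6 of the 148 sets of 4 to 10 arrays examined (37 genes in 4 groups), the highest or lowest array stood apart from the rest of its group; chance does this in about 5% of sets. Calcrl was lowest in C57BL/6 control + crofelemer 1 (14.93), the array in which Flt4 was highest (9.79). Kdr was highest in C57BL/6 control + crofelemer 3 (15.09). Gpihbp1 was highest in C57BL/6 control 1 (12.57) and Mmrn2 lowest in C57BL/6 control 6 (8.29). Cldn5 was highest in B-cell deficient MDI 7 (14.47).

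In 3 of the 37 genes the effect of MDI differed between B-cell deficient and C57BL/6 mice by limma's interaction test: Vwf by 0.96, Cldn5 by 0.78 and Eng by 0.67. Of all probe sets 9.27% were called higher and 11.0% lower in this test, so 3 of 37 is near the share of all probe sets called higher. Without the 4 narrow-spread controls none of the 3 genes was called, and with the submission term only Vwf was. The difference in Eng was carried by the fall in C57BL/6 mice (-0.76), and that in Vwf by the rise in B-cell deficient mice (0.79).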

How the results depend on the processing

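No called gene changed sign in any fit. Leaving out arrays gave 0 to 2 genes called with MDI in BALB/c, 14 to 23 in C57BL/6 and 11 to 15 in B-cell deficient mice. It gave 17 to 26 for crofelemer with MDI, 29 to 31 without MDI, 3 to 6 for the difference by B-cell deficiency (5 or 6 without C57BL/6 control 6, C57BL/6 MDI 1, 2, 4, 6 or 14, B-cell deficient control 3 or B-cell deficient MDI 5), 0 to 2 for the difference by crofelemer, and 0 for MDI under crofelemer and the difference by strain.

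The BALB/c count of 2 became 5 with only the groups compared, 1 without dim probe sets (which removed Esm1) and 1 in the first submission block. The B-cell deficient count of 15 became 9 with the block of submission as a term. The difference by B-cell deficiency, 3 genes, became 5 with only the groups compared, 1 with the submission term and 0 without the 4 narrow-spread controls. With a replicate block the counts were 5 in BALB/c, 8 in C57BL/6 (of 21, on 6 controls and 6 MDI arrays) and 12 for crofelemer with MDI (of 22, on 6 arrays). Both lower counts come with fewer arrays in the fit, and the part of the pairing was not tested. In C57BL/6 mice 13 genes were lost, Eng and all 5 junction and adhesion genes among them. Same-numbered arrays correlated positively in all 3 pairs for crofelemer with MDI and in 4 of 6 for MDI in C57BL/6 mice. The other blocked counts stayed within 1.5 times, though Eng lost its interaction call (adjusted p = 0.0501). The cause of the other changes was not tested. Signal over background was not given, which limits what can be said of Nos3 and Esm1.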

Other observations

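The 2 arrays left out for contradictory labels had the following values. The array titled MDI Exposed + Crofelemer 4 had a mean of 11.55 over the 37 endothelial genes, with Tmem100 at 13.89, Plvap at 12.81, Ednrb at 12.66, Emcn at 12.03 and Cyyr1 at 15.16. The array titled MDI Exposed 13 had a mean of 11.72, with Tmem100 at 14.91, Plvap at 13.73, Ednrb at 13.14, Emcn at 12.40 and Cyyr1 at 15.19.

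In the third submission block, the MDI array (C57BL/6 MDI 14, whose source label names control) was lower than both controls in 22 of the 37 genes, against 33.1% of all probe sets, with a median difference of -0.23.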
